A study of Mus musculus with 2 samples.

Results

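Cells make purine and pyrimidine nucleotides for RNA and DNA, and the 32 genes described here encode enzymes of these routes together with enzymes that supply one-carbon units on folate. They were chosen by name, as genes of purine synthesis, salvage and breakdown (14 genes), pyrimidine synthesis (5 genes), deoxynucleotide metabolism (9 genes) and folate metabolism (4 genes), out of 20657 genes in the table. Their RNA was measured by RNA-seq in 1 library of *Ebf1* -/- pre-pro-B cells and 1 library of *Rag2* -/- pro-B cells. Loss of Ebf1, a transcription factor of the B lineage, holds cells at the pre-pro-B stage, and loss of Rag2, a subunit of the recombinase that cuts antigen receptor genes, holds them at the pro-B stage. The pre-pro-B cells came from female fetal liver and were grown with Il-7 (5 ng/mL), Scf (10 ng/mL) and Flt3l (10 ng/mL). The pro-B cells came from male adult bone marrow and were grown with Il-7 (5 ng/mL) alone. Both were of C57BL/6 origin and grew on OP-9 stromal cells, a mouse bone marrow stromal line. Stage therefore cannot be told apart from genotype, sex, age, tissue of origin or cytokines, and with 1 library per cell type no difference has a replicate check and no test was possible.

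De novo purine synthesis builds the purine ring on ribose phosphate through IMP, which is then turned into AMP or GMP, while pyrimidine synthesis makes the ring first and joins it to ribose phosphate to give UMP and then CTP. Ribonucleotide reductase converts ribonucleotides to deoxynucleotides, the step that supplies DNA synthesis, and thymidylate is made either from dUMP with folate or by salvage of thymidine. Salvage and breakdown of purine nucleosides matter in lymphocytes, in which deoxyadenosine and deoxyguanosine are toxic when Ada or Pnp is missing.

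The libraries carried the markers of their labels. *Flt3* was at 303 FPKM (fragments scaled to transcript length and library size) in the pre-pro-B library and 0.916 in the pro-B library, all 3 pre-pro-B markers examined were lower by at least 2-fold in the pro-B library, and the 5 pro-B markers other than *Ebf1*, whose level the genotype can set, were higher, among them *Vpreb1*, a part of the surrogate light chain, at 0.359 and 335 FPKM. Both targeted genes still gave reads in their null library: *Ebf1* was at 64.0 FPKM in the pre-pro-B library and 273 in the pro-B library, and *Rag2* at 34.5 and 22.9. A value per transcript does not tell whether those reads lie in the deleted part. Of 12 stromal markers, 6 reached 1 FPKM in either library, and the 12 together had a summed level of 20.6 FPKM in the pre-pro-B library and 12.3 in the pro-B library, of which *Pdgfrb*, the one marker at least 2-fold lower, gave 15.9 and 0.377. Without it the remaining 11 summed to 4.67 and 11.9 FPKM, and 8 of them had the higher value in the pro-B library. *Col1a2* (0.707 and 2.82 FPKM) and *Cxcl12* (0.618 and 2.92 FPKM) were at least 2-fold higher there, and *Sparc* was at 1.13 and 2.81. *Dcn* and *Postn*, abundant in stromal cells, were listed at 0 in both. The part of stromal RNA in the values below was not tested.

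All 32 enzymes passed the filter of at least 1 FPKM in at least one library, as did 10669 of all genes. Each level is the sum over the gene's protein-coding transcripts. A difference is the log2 ratio of FPKM + 1, pro-B over pre-pro-B, which understates the change of low genes, and a gene was counted as higher or lower where it passed 2-fold on this scale. In the pro-B library 9 of the 32 enzymes were higher by 2-fold or more, beside 12.3% of all genes that passed the filter, and 2 were lower, beside 19.2%. The other 21 lay within 2-fold. Of the 9 higher enzymes, 8 belong to deoxynucleotide metabolism, and the other was *Ada*. The 2 lower ones were *Samhd1*, which breaks deoxynucleotides down, and *Adssl1*, the muscle form of adenylosuccinate synthase. The median log2 ratio was 0.35 over the 32 enzymes and -0.14 over all genes that passed the filter. Added together, the enzymes went from 1037 FPKM in pre-pro-B cells to 1987 in pro-B cells, of which the 9 deoxynucleotide enzymes gave 322 and 1156 and the remaining 23 gave 715 and 831.

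**Figure D1:**
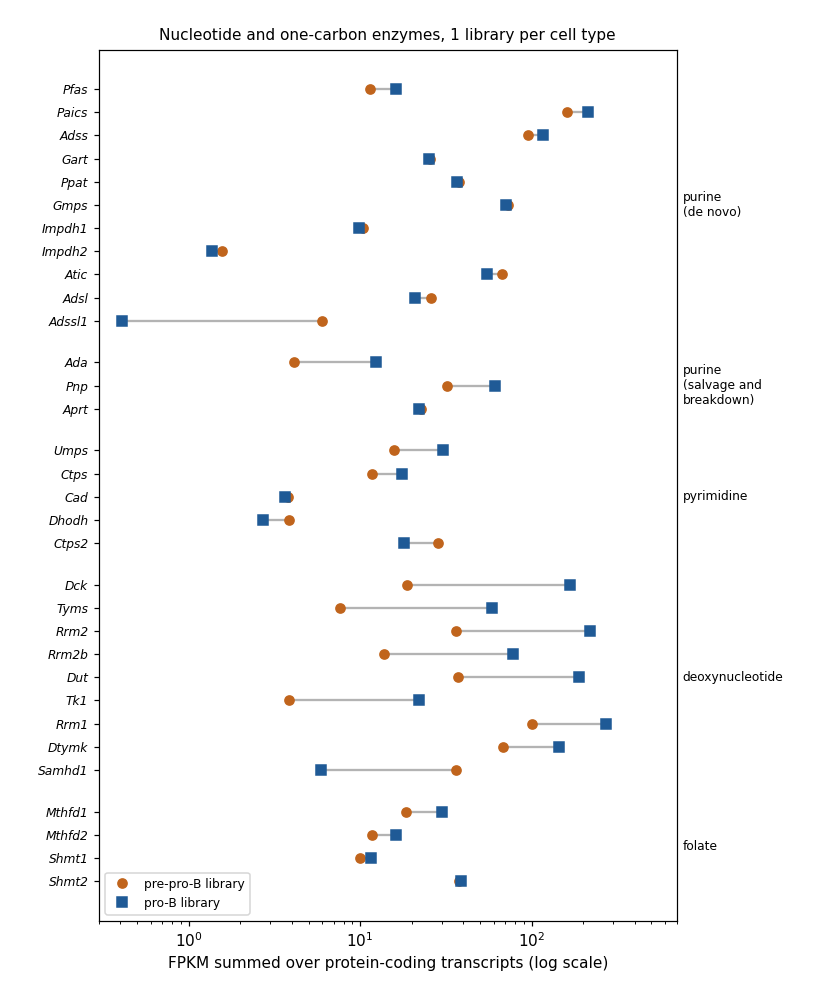
Summed FPKM (horizontal log axis) of the 32 enzymes in the pre-pro-B library (circles) and the pro-B library (squares), ordered by step and, within a step, by log2 ratio. Grey lines join the 2 values of a gene, without error bars since each cell type has 1 library. The long lines lie among the deoxynucleotide enzymes, at *Adssl1* (6.03 and 0.406 FPKM) and at *Ada* (4.13 and 12.3 FPKM).

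Levels spanned a wide range in both libraries. In pre-pro-B cells the lowest enzyme was *Impdh2* at 1.56 FPKM, the median was 20.6 and the highest was *Paics* at 161. In pro-B cells the lowest was *Adssl1* at 0.406 FPKM, the median was 27.7 and the highest was *Rrm1* at 273. The enzymes at 100 FPKM or more numbered 2 in pre-pro-B cells, *Paics* and *Rrm1*, and 7 in pro-B cells, where *Rrm2*, *Dut*, *Dck*, *Dtymk* and *Adss* joined them. The medians of all genes that passed the filter were 12.8 and 11.6 FPKM.

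The deoxynucleotide enzymes were the step in which every member passed 2-fold. Of the 9, 8 were higher in pro-B cells and 1 was lower, with a median log2 ratio of 2.31. The 9 summed to 322 FPKM in the pre-pro-B library and 1156 in the pro-B library, a 3.59-fold difference. Without *Samhd1*, left out because it was the lower one, the remaining 8 summed to 285 and 1150.0 FPKM, a 4.03-fold difference.

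Ribonucleotide reductase pairs a large subunit, Rrm1, with a small subunit, Rrm2 or its p53-inducible relative Rrm2b. *Rrm1* (NM_009103, chromosome 7, 109590209 to 109618285 of mm9, plus strand) was at 100.2 FPKM in the pre-pro-B library and 273 in the pro-B library, a log2 ratio of 1.44. *Rrm2* (NM_009104, chromosome 12, 25393106 to 25399011, plus strand) was at 36.1 and 219 FPKM, a log2 ratio of 2.57. *Rrm2b* (NM_199476, chromosome 15, 37853707 to 37891073, minus strand) was at 13.8 and 78.1 FPKM, a log2 ratio of 2.42. By these values, from 1 library each, the small subunits differed more between the libraries than the large one. The wide limits of *Rrm1* and *Rrm2* are given below. The FPKM of *Rrm1* was 2.01 times the sum of both small subunits in the pre-pro-B library and 0.917 times in the pro-B library. The split between the small subunits hardly moved, with *Rrm2* at 72.3% of their sum in the pre-pro-B library and 73.7% in the pro-B library.

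Thymidylate can come from de novo synthesis by Tyms or from salvage by Tk1, after which Dtymk adds the next phosphate. *Tyms* (NM_021288, chromosome 5, 30384742 to 30400157, minus strand) was at 7.67 FPKM in the pre-pro-B library and 58.6 in the pro-B library, a log2 ratio of 2.78. *Tk1*, nearly all of it from NM_009387 (chromosome 11, 117676840 to 117687406, minus strand), was at 3.84 and 22.0 FPKM, a log2 ratio of 2.25. The RNA of both enzymes was thus higher in the pro-B library, while the routes themselves were not measured. *Dtymk* (chromosome 1, 95689153 to 95698511, minus strand) was at 67.9 and 144 FPKM, the smallest difference among the 8, with a log2 ratio of 1.07. Its transcript NM_001105667 was at 55.4 and 96.7 FPKM and its transcript NM_023136 at 12.5 and 47.1, so that the call at 2-fold was lost when only the most abundant transcript was used (log2 ratio 0.79) and also under TPM scaling.

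Dut removes dUTP and yields dUMP, the substrate of Tyms. *Dut* (chromosome 2, 125072926 to 125084344, plus strand) was at 37.3 FPKM in the pre-pro-B library and 189 in the pro-B library, a log2 ratio of 2.31. Both of its transcripts were higher in pro-B cells: NM_023595 was at 28.7 and 137 FPKM, and NM_001159646 at 8.60 and 51.5.

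Dck phosphorylates deoxycytidine, deoxyadenosine and deoxyguanosine taken up from outside the cell, and Samhd1 hydrolyses deoxynucleoside triphosphates. *Dck* (NM_007832, chromosome 5, 89194021 to 89212306, plus strand) was at 18.7 FPKM in the pre-pro-B library and 167 in the pro-B library. Its log2 ratio of 3.09 was the highest of the 32, and 1.57% of all genes that passed the filter had a higher one. *Samhd1* (chromosome 2, 156923265 to 156961001, minus strand) was at 36.3 FPKM in the pre-pro-B library and 5.90 in the pro-B library, a log2 ratio of -2.43, the lowest of the 32. Its transcript NM_018851 gave 30.8 and 5.90 FPKM, and NM_001139520 gave 5.49 and 0.00238. The ratio of *Dck* to *Samhd1* was thus 0.514 in the pre-pro-B library and 28.2 in the pro-B library. It pairs the highest and the lowest log2 ratio of the 32, so a wide difference follows from that choice.

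The deposited table gives lower and upper 95% limits from the model of Cuffdiff, the program that estimated the FPKM, for each transcript. Among the 32 enzymes, only *Dck* had limits of the main transcript, the one with most FPKM, that did not overlap between the libraries, beside 4.83% of all genes that passed the filter. They ran from 3.28 to 34.0 FPKM in pre-pro-B cells and from 38.1 to 295 in pro-B cells. For *Rrm2* they ran from 7.43 to 64.7 and from 49.9 to 387 FPKM, and for *Rrm1* from 17.1 to 183 and from 16.5 to 532. For *Samhd1* they ran from 0.709 to 61.7 and from 0.204 to 12.7 FPKM. These limits are wide, and they describe each library and not the spread between cultures.

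**Figure D2:**
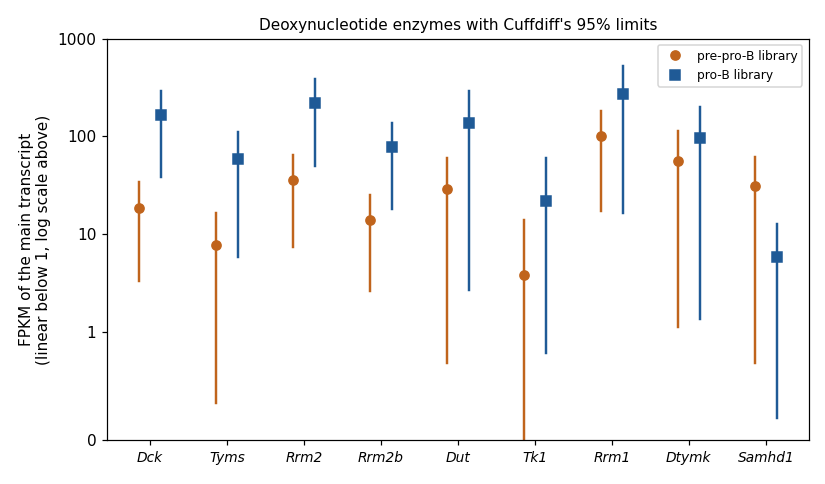
FPKM of the main transcript (vertical axis, linear below 1 and log scale above) of the 9 deoxynucleotide enzymes, with lines for Cuffdiff's lower and upper 95% limits, in the pre-pro-B library (circles) and the pro-B library (squares). The limits overlap for 8 of the 9 genes, the exception being *Dck* (upper limit 34.0 FPKM in pre-pro-B cells, lower limit 38.1 in pro-B cells).

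The 250 bases before the annotated start are printed for 5 of these genes, the reductase subunits *Rrm1* and *Rrm2*, the 2 highest log2 ratios (*Dck* and *Tyms*) and the gene of opposite direction (*Samhd1*). They come from RefSeq on build GRCm38.p6, so their coordinates are not those of the mm9 positions above, and each reads 5′ to 3′ on the strand of its gene. Capitals mark matches, on either strand, to CACGTG (the E-box letters), CCAAT or GGGCGG (the GC box letters, CCGCCC on the other strand).
*Rrm1* promoter, chr7:102441445-102441694, plus strand: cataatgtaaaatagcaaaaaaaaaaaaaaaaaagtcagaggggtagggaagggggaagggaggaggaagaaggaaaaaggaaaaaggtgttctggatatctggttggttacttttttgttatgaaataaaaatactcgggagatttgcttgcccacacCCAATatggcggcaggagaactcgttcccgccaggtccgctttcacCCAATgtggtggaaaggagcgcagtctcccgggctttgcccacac
*Rrm2* promoter, chr12:24708004-24708253, plus strand: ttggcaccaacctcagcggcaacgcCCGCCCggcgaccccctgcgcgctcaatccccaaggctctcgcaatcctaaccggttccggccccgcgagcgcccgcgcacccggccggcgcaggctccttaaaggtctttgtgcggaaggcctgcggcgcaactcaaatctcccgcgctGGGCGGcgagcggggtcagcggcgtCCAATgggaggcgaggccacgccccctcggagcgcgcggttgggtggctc
*Dck* promoter, chr5:88764763-88765012, plus strand: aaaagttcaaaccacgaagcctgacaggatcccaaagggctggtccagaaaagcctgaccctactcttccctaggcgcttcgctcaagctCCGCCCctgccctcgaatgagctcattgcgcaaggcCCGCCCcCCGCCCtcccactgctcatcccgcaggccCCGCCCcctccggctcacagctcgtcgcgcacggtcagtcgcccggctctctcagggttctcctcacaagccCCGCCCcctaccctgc
*Tyms* promoter, chr5:30073626-30073875, minus strand: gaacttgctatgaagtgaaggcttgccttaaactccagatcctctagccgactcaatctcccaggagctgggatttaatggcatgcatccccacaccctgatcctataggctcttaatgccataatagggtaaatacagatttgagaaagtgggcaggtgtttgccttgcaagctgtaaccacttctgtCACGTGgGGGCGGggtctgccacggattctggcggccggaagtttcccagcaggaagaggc
*Samhd1* promoter, chr2:157135097-157135346, minus strand: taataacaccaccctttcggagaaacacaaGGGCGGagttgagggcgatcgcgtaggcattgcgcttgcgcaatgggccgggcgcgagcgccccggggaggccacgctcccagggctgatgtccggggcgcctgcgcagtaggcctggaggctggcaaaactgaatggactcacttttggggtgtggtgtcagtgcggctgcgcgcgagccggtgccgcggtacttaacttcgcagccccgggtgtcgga

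Within the printed bases *Dck* held 5 GC box matches and no other match, whereas *Rrm1* held 2 CCAAT matches and no GC box, and *Tyms* held an E-box match beside a GC box. The 4 printed genes that were higher in pro-B cells thus shared no single set of these letters. Over windows of 300 bases, reaching 50 bases past the start, 29 of the 32 enzymes had 33 promoters. GGGCGG was in 75.8% of them and in 63.1% of the promoters of all genes that passed the filter. CACGTG was in 15.2% and 10.3%, and CCAAT in 39.4% and 38.0%. Letters of E2F sites (TTTCCCGC, TTTGGCGC, TTTGCCGC or TTTCGCGC) were in 1 promoter of the 33, that of *Ppat*, or 3.03%, beside 4.26%. Of the 9 higher enzymes *Rrm2b* had no promoter to search, which left 8 promoters, that of *Ada* included. None of the 8 held these letters in the window. Beside a share as low as 4.26%, a count of none in 8 says little. Other forms of E2F sites were not searched. GGGCGG was in 6 of the 8, CCAAT in 4 and CACGTG in 2 (*Dtymk* and *Tyms*). A match is a description of letters only.

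Of the 11 enzymes of de novo purine synthesis 10 lay within 2-fold, and 1 was lower. Over the 11 the median log2 ratio was -0.04, and they summed to 515 FPKM in the pre-pro-B library and 567 in the pro-B library. *Ppat*, which catalyses the first committed step, was at 37.9 and 36.9 FPKM. *Gart*, which carries out 3 steps of the route, was at 25.6 and 25.1, and *Pfas*, which acts between those steps, at 11.4 and 16.1. *Paics* (NM_025939, chromosome 5, 77380332 to 77396534, plus strand), a bifunctional enzyme of the middle of the route, was at 161 and 213 FPKM, a log2 ratio of 0.40. *Adsl*, which acts both here and in AMP synthesis, was at 26.0 and 20.8, and *Atic*, which closes the ring to IMP, at 66.8 and 55.1. From the first step to IMP no enzyme reached 2-fold in either direction.

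*Ppat* and *Paics* lie head to head on chromosome 5, *Ppat* on the minus strand (77342274 to 77380603) and *Paics* on the plus strand, and their annotated 5′ ends overlap by 272 bases in mm9. The FPKM of *Paics* was 4.25 times that of *Ppat* in the pre-pro-B library and 5.77 times in the pro-B library. The limits of *Ppat* were wide, from 0 to 90.1 and from 0 to 96.8 FPKM. FPKM describes RNA over whole transcripts, so transcription from the shared start region was not measured. The libraries were strand-specific, which bears on this overlap.

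The branches from IMP to AMP and GMP held the one purine enzyme that was lower. *Adss* (NM_007422, chromosome 1, 179693093 to 179726642, minus strand), the general adenylosuccinate synthase, was at 95.6 and 117 FPKM, a log2 ratio of 0.29. *Adssl1* (NM_007421, chromosome 12, 113858258 to 113879565, plus strand) was at 6.03 FPKM in pre-pro-B cells, with limits from 0.243 to 22.4, and 0.406 in pro-B cells, with limits from 0 to 1.88. Its log2 ratio was -2.32 with the pseudocount and -3.89 without it, and at 90 M reads its levels stand for about 972 and 65.4 fragments. Because *Adss* was far more abundant, the pair summed to 102 FPKM in the pre-pro-B library and 118 in the pro-B library, with *Adss* giving 94.1% and 99.7%. On the GMP branch, *Gmps*, which makes GMP from XMP, was at 72.9 and 70.6 FPKM. *Impdh1*, one of the pair of IMP dehydrogenases that make XMP, was at 10.4 and 9.89, and *Impdh2* (NM_011830, chromosome 9, 108462774 to 108467895, plus strand) at 1.56 and 1.36.

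The low value of *Impdh2*, which with *Adssl1* and *Dhodh* had the 3 lowest mean levels, stands beside a near-identical copy elsewhere in the genome. Its whole coding sequence of 1545 bases matched chr8:102554458-102556002 of mm9 at 99.7% identity and without introns. Of the 1449 stretches of 97 bases (the read length) in its coding sequence, 79.3% occurred letter for letter outside the gene, and 54.0% occurred there while being interrupted by an intron in the gene itself. One such stretch, coding bases 42 to 138, is printed to show this, with the exon before an intron of 402 bases in lower case and the next exon in capitals.
*Impdh2* coding stretch, also uninterrupted in the copy on chromosome 8: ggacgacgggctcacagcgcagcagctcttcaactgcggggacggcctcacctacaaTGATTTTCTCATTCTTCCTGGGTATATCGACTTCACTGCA
How reads from such stretches were assigned was not tested, so the level of *Impdh2*, and its place below *Impdh1* (13.0% of the pair in the pre-pro-B library and 12.1% in the pro-B library), is uncertain.

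Other enzymes had copies of at least 95% identity as well. Such copies covered the whole coding sequence of *Rrm2b* and *Tk1*, 98.7% of that of *Paics*, 97.2% of *Pnp*, 52.6% of *Rrm2*, 520 of 2082 bases of *Gmps* and 13.7% of *Ctps*, and none of the other 24 enzymes. Exact matches of 97 bases outside the gene were fewer: 16.5% of the stretches of *Pnp*, 9.74% of *Tk1*, 5.83% of *Rrm2b*, 4.09% of *Rrm2*, 2.47% of *Gmps* and 0 for *Paics* and *Ctps*. Among the 8 deoxynucleotide enzymes that were higher, *Rrm1*, *Tyms*, *Dck*, *Dtymk* and *Dut*, had no copy of this kind.

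Purine salvage and breakdown was represented by 3 enzymes. *Aprt*, which salvages adenine, was at 22.6 FPKM in the pre-pro-B library and 22.0 in the pro-B library. *Ada* (NM_007398, chromosome 2, 163552320 to 163575975, minus strand), which deaminates adenosine and deoxyadenosine, was at 4.13 and 12.3 FPKM, a log2 ratio of 1.38, with limits from 0 to 9.96 and from 0.259 to 26.1. *Pnp*, which cleaves the nucleosides that follow, was at 32.1 and 61.4 FPKM, a log2 ratio of 0.91. Its neighbouring copy *Pnp2* was at 0.121 FPKM in the pre-pro-B library and listed at 0 in the pro-B library. Of the 3, *Ada* alone passed 2-fold.

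All 5 pyrimidine enzymes lay within 2-fold, with a median log2 ratio of -0.05. *Cad*, which carries out the first 3 reactions, was low at 3.81 and 3.65 FPKM. *Dhodh* (NM_020046, chromosome 8, 112115243 to 112132573, minus strand), the mitochondrial enzyme of the route, was also low, at 3.86 FPKM (limits 0.0341 to 11.2) in pre-pro-B cells and 2.70 (limits 0.0170 to 8.20) in pro-B cells. *Umps*, which completes UMP, was at 15.7 and 30.5 FPKM, a log2 ratio of 0.91 and the nearest to 2-fold of the 5. The CTP synthases differed in opposite directions below that limit: *Ctps* was at 11.7 and 17.5 FPKM, and *Ctps2*, on the X chromosome, at 28.5 and 18.1. Their sum was 40.2 FPKM in the pre-pro-B library and 35.5 in the pro-B library, and the share of *Ctps* in it was 29.1% and 49.1%. Most of *Ctps2* came from NM_001168568, at 26.7 and 15.3 FPKM (93.6% and 84.7% of the gene). NM_018737 differed the other way, at 1.81 and 2.77 FPKM, with overlapping limits (0 to 8.60 and 0 to 10.2), while NM_001168569 and NM_001168571 were listed at 0 in both libraries.

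The 4 folate enzymes also lay within 2-fold, with a median log2 ratio of 0.31. *Shmt1* and *Shmt2*, the cytosolic and mitochondrial hydroxymethyltransferases that pass a carbon from serine to folate, were at 10.0 and 37.5 FPKM in pre-pro-B cells and at 11.6 and 38.7 in pro-B cells. *Shmt2* thus gave most of the pair in both, 78.9% and 76.9%. *Mthfd1*, the cytosolic enzyme that interconverts folate one-carbon forms, was at 18.5 and 30.2 FPKM, a log2 ratio of 0.68, and *Mthfd2*, a mitochondrial counterpart, at 11.7 and 16.1, a log2 ratio of 0.42.

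**Figure D3:**
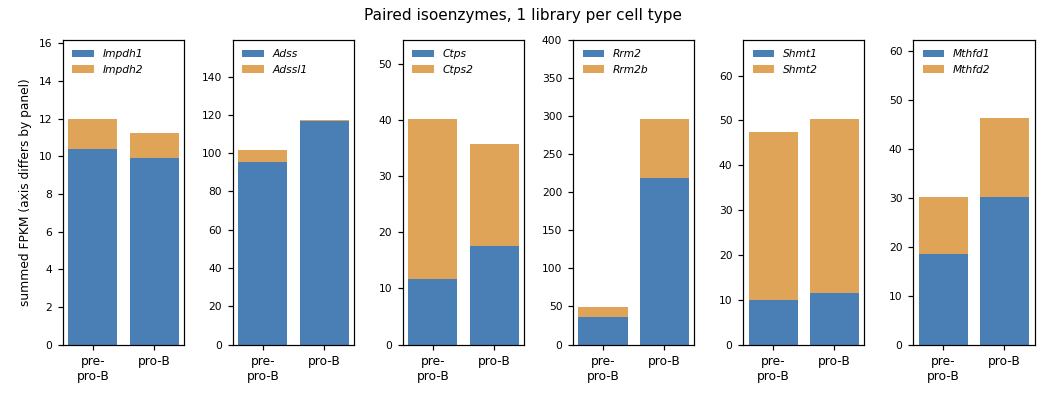
Summed FPKM (vertical axes, each from 0 and differing by panel) of 6 pairs of isoenzymes or subunits in the pre-pro-B and pro-B libraries, stacked by gene and without error bars since each cell type has 1 library. The *Rrm2* and *Rrm2b* stacks sum to 49.9 and 297 FPKM with nearly the same split, while the *Ctps* share is 29.1% and 49.1% of sums of 40.2 and 35.5.

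Other genes of the same routes, taken from lists by name, differed in both directions. Of 21 other purine genes 19 passed the filter, with 3 higher, 4 lower and a median log2 ratio of 0.00. Over all genes that passed the filter 12.3% were higher and 19.2% lower, so counts this small say little about the list. *Prps1* and *Prps2* make the ribose phosphate donor of purine and pyrimidine synthesis, and they differed in opposite directions, *Prps1* at 6.07 and 24.5 FPKM and *Prps2* at 71.9 and 29.2. *Adk*, which phosphorylates adenosine, was at 21.6 and 56.8 FPKM, and the nucleotidase *Nt5c2* at 26.9 and 79.7. *Hprt*, the salvage enzyme for hypoxanthine and guanine, had the highest mean of this list, at 152 and 275 FPKM, within 2-fold. *Gmpr*, *Nt5e* and *Ak1* were the other lower genes, each under 5 FPKM in both libraries.

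Of 22 other pyrimidine and deoxynucleotide genes 17 passed the filter, with 1 higher, 6 lower and a median log2 ratio of -0.28. The shares over all genes that passed the filter were 12.3% higher and 19.2% lower. *Dctd*, which deaminates dCMP to dUMP, was at 9.04 FPKM in the pre-pro-B library and 0.633 in the pro-B library, and *Cmpk2*, a mitochondrial nucleotide kinase, at 11.7 and 1.37. These were lower in the library in which *Tyms* and *Dut* were higher. *Uckl1*, *Uprt*, *Upb1* and the nucleoside transporter *Slc29a1* were the other lower genes, and *Uck1*, a uridine-cytidine kinase, was the higher one, at 4.21 and 9.60 FPKM. The mitochondrial deoxynucleoside kinases *Tk2* (1.94 and 3.79 FPKM) and *Dguok* (21.9 and 12.8 FPKM) lay within 2-fold.

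Of 22 other folate and serine genes 19 passed the filter, with 2 higher, 3 lower and a median log2 ratio of -0.01. These counts stand beside 12.3% higher and 19.2% lower over all genes that passed the filter. *Psat1*, an enzyme of serine synthesis, was at 47.4 and 108 FPKM, whereas its pathway neighbours *Phgdh* (4.72 and 5.14 FPKM) and *Psph* (13.1 and 12.9 FPKM) lay within 2-fold. *Mtrr*, *Mtfmt* and *Ggh* were lower.

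Genes of the cell cycle differed in the same direction as 8 of the 9 deoxynucleotide enzymes. The 20 S phase genes examined include replication helicase subunits and the polymerase clamp. Of these, 17 reached 2-fold higher in the pro-B library and none was lower, with a median log2 ratio of 1.5. Over all genes that passed the filter, 12.3% were higher and 19.2% lower. *Pcna* was at 59.2 and 206 FPKM, and *Mcm6* at 117 and 288. All 16 mitosis genes were higher, with a median log2 ratio of 2.06, among them *Top2a* at 138 and 622 FPKM. The sums were 663 and 1879.9 FPKM for S phase genes (2.83-fold) and 567 and 2515 for mitosis genes (4.43-fold). Beside these stand 3.59-fold for all 9 deoxynucleotide enzymes and 1.16-fold for the 23 members of other steps. Leaving out *Samhd1*, the lower one of the 9, gave 4.03-fold, a value raised by that choice. The part of the share of cycling cells in these differences was not tested, and in bulk RNA a larger share of cells in a state and more RNA per cell cannot be told apart.

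**Figure D4:**
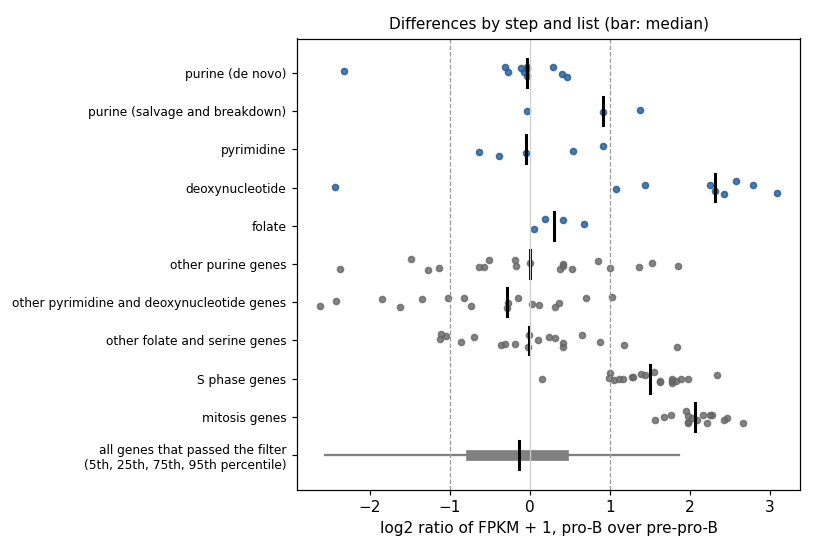
Log2 ratio of FPKM + 1, pro-B over pre-pro-B (horizontal axis), for the enzymes by step (upper 5 rows, blue points), for 5 lists of other genes (grey points), and for all 10669 genes that passed the filter (thin line 5th to 95th percentile, thick line 25th to 75th). Black bars are medians and dashed lines mark 2-fold; the medians of the deoxynucleotide enzymes (2.31), S phase genes (1.5) and mitosis genes (2.06) lie past 2-fold, and those of the other rows do not.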

How the data were processed

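RNA-seq was made from total RNA depleted of ribosomal and small RNA, as strand-specific libraries with about 90 M single-end reads of 97 bases and RNA integrity numbers of 9.9 in both. The authors trimmed the reads, aligned them to mm9 with TopHat and estimated each RefSeq transcript with Cuffdiff 2.1.1, keeping reads with several alignments under a correction. The deposited values are FPKM with lower and upper 95% limits, without scaling between the libraries. A further deposited table holds the authors' fold changes and p-values and was not used, which left 2 columns of per-sample values unused. FPKM carry no counts, so depth enters only as fragments approximated from transcript length and 90 M reads, the same number for both libraries. The paper also lists mapped reads for its RNA-seq data, which were not used, so the fragment numbers are rough.

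Of 30485 transcripts, 26968 rows were protein-coding, and 26551 of these were matched to gene symbols through a RefSeq table of GRCm38.p6, used for names only; unmatched accessions stayed as genes of their own. FPKM were summed per gene. The pseudocount was 1 FPKM, the filter 1 FPKM in at least one library and the limit 2-fold. Positions came from the GENCODE M1 annotation of mm9. Copies were sought with BLAST 2.17.0 (at least 95% identity and 97 bases). The counting of 2-fold differences was checked on simulated FPKM. Python 3.11.15, numpy 2.4.6, pandas 2.3.3 and matplotlib 3.10.9 were used. The members and lists were chosen with earlier results of these data known. All members are given; those past 2-fold, the 3 highest and 3 lowest by mean, and isoenzymes split by the limit, are given with positions. From each list of other genes, those past 2-fold and the 3 highest were eligible to be named, at most 8 a list, and some are not reported here; *Tk2*, *Dguok*, *Phgdh* and *Psph* were named after their values were seen. The alternatives were other pseudocounts, filters, scalings, transcripts and fold limits.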

Additional observations from a re-analysis of the deposited data

Results flagged for a closer look

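Non-coding transcripts of the same genes stood outside the sums. The non-coding *Tyms* transcript NR_033402 was at 1.03 FPKM in the pre-pro-B library and 1.90 in the pro-B library, above the level that a count of 0 allows (3 fragments). The non-coding *Ctps2* transcript NR_033143 was at 0.201 FPKM in the pre-pro-B library and listed at 0 in the pro-B library.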

How the results depend on the processing

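The count of 9 higher enzymes became 8 with TPM scaling or with the most abundant transcript of each gene, in both cases by the loss of *Dtymk*, and 12 at a limit of 1.5-fold, which added *Mthfd1*, *Pnp* and *Umps*. The count of 2 lower enzymes became 1 when at least 1 FPKM was required in both libraries, which by construction leaves out *Adssl1*, and 3 at 1.5-fold, which added *Ctps2*. The median log2 ratio of the enzymes became 0.23 under TPM scaling, which shifts every log2 ratio without a pseudocount by -0.12 (median-ratio scaling: 0.09). No called enzyme changed direction under the alternatives run, whereas small log2 ratios near 0, such as that of *Ppat* (from -0.16 to 0.05), changed sign between scalings. Over all genes, higher calls were 39.1% of the calls, and 48.2% when 1 FPKM was required in both libraries; over the enzymes they were 81.8% and 90.0%. Leaving out a library was not possible with 1 per cell type. No paired analysis was possible because each cell type has 1 library and no test was made. Depth limits the low enzymes most, such as *Adssl1* in pro-B cells (about 65.4 fragments).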
